A study of Mus musculus with 9 samples.

Results

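Fc receptors bind the constant part of antibodies, and 7 mouse genes of this kind were followed here in aging whole brain. They were taken from the gene table by symbol: Fcer1g, Fcgr1, Fcgr3 and Fcgr4 for the activating receptors, Fcgr2b for the inhibitory receptor, Fcgrt for the neonatal receptor and Fcrls for a receptor-like gene. They are 7 of the 49315 genes in the table, and 6 of them were among the 18492 genes that passed the filter on low counts. Fcgr4 did not pass. RNA-seq after polyA selection was performed on individual brains of male wild-type C57BL/6J mice without any treatment. The young group held 5 mice of 3 months and the old group 4 mice of 33 months, here called young 1 to 5 and old 1, 3, 4 and 5. Old replicate 2 was not analysed here. The libraries held 14229259 to 21150439 counts on genes, and their totals did not differ detectably with age (exact permutation test of the difference in mean, two-sided, p = 0.698). At this depth a gene at 1 CPM (the standard scaling of counts to library size) rests on few reads, and the least abundant receptors carry the largest counting error.

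Fc receptors couple antibody to the behavior of the cell that bears them. The activating receptors FcγRI (Fcgr1), FcγRIII (Fcgr3) and FcγRIV (Fcgr4) signal through the common γ chain, the product of Fcer1g, which carries an immunoreceptor tyrosine-based activation motif (ITAM) that recruits the kinase SYK and leads to phagocytosis and the oxidative burst. FcγRIIB (Fcgr2b) carries the inhibitory counterpart (ITIM) and recruits the phosphatase SHIP1, and the balance between both kinds sets the threshold of the cell. In brain these receptors are known from microglia and from macrophages at the borders of the tissue, whereas FcRn (Fcgrt) pairs with β2-microglobulin, protects IgG from degradation and is known from endothelium and other cells, and Fcrls is known as a marker of microglia.

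Fcgr2b (chr1:170958617-170976547, minus strand), Fcgr4 (chr1:171018920-171029761, plus strand), Fcgr3 (chr1:171051174-171064935, minus strand) and Fcer1g (chr1:171229572-171234365, minus strand) lie within 276 kb of chromosome 1 in the GRCm38 build. Fcgr1 (chr3:96282909-96293969), Fcrls (chr3:87250758-87263738) and Fcgrt (chr7:45092990-45103851) lie elsewhere, all on the minus strand. The chromosome 1 interval holds 17 annotated genes, and 7 tested genes in it are not Fc receptors. Of these 7, 1 passed an adjusted p under 0.05, beside 11% of all tested genes in either direction. It was Tomm40l, with a log2 fold change of -0.27 (edgeR, adjusted p = 0.00559). The log2 fold changes of the 7 ran from -0.44 to 0.48. Fcgr2b and Fcgr3 share part of their sequence: 9.58% of the 50-base stretches of Fcgr3 transcripts also occur in Fcgr2b transcripts, and the same stretches make up 2.92% of those of Fcgr2b. No 150-base stretch of Fcgr3 occurs in another gene. Fcgr2b also shares 155 exon bases with the antisense gene Gm38204, and where counting ignores strand those reads cannot be told apart.

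The bases before the transcription start are shown for the 4 receptors with higher mean levels in old brain whose bases before the start hold a match to a myeloid or interferon motif. The sequences come from RefSeq promoters of GRCm38.p6, in which all 7 genes were matched, and are written 5′ to 3′ on the strand of the gene. Fcgr1 is shown from chr3:96293970-96294119, Fcgr3 from chr1:171059404-171059553 and Fcgr4 from chr1:171018776-171018919, all outside the annotated exons of the gene, and Fcgr2b from the 30 bases around its match (chr1:170976087-170976116), which lie in an annotated exon of longer transcripts. Capitals mark matches.
Fcgr1: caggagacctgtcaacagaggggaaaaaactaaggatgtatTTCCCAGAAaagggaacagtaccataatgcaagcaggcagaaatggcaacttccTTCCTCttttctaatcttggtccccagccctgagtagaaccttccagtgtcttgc
Fcgr3: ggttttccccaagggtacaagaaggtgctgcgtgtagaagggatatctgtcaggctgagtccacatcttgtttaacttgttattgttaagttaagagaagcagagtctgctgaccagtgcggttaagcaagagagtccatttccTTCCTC
Fcgr4: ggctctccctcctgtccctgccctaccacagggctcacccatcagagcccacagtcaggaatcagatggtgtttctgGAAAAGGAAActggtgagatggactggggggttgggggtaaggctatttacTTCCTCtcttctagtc
Fcgr2b: gaccgtttctTTTCACTTCCccatttggac
The 4 motifs searched on both strands in the 250 bases before each start were GAGGAA, the core bound by the myeloid factor PU.1, TTCNNNGAA, the interferon-γ activated site (GAS), GAAA and GAAA with 2 free bases between them, the interferon-stimulated response element (ISRE), and GGAA and GAAA with 2 free bases between them, a joint element of PU.1 and interferon regulatory factors, which can overlap GAGGAA through the letters GGAA. Fcgr1 held a GAS match 109 bases and a PU.1 core 55 bases before its start. Fcgr3 held a PU.1 core 6 bases before the start shown and 15 bases before its other listed start. Fcgr4 held an ISRE match at 73 and a PU.1 core at 22 bases, and Fcgr2b the joint element at 35 bases. Fcrls held a PU.1 core at 144 bases, and these letters were not found in the windows of Fcer1g and Fcgrt. Of all 32851 promoters in the table, 23.3% held the PU.1 core, 7.0% the GAS letters, 3.0% the ISRE letters and 2.3% the joint element, so a match describes the sequence only.

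Young 4 stood apart from the other young libraries for most of these genes. It was 2.97 times the mean of the other 4 young libraries for Fcgr2b, 2.33 times for Fcgr3, 2.18 times for Fcer1g, 1.79 times for Fcrls and 1.73 times for Fcgr1, but 0.89 times for Fcgrt. The differences of the receptor genes between the ages are therefore given with and without this library. Young 4 was picked out by these same values, so leaving it out raises the difference wherever it was high. Counts and p values without it, here and below, are a description and no support for a difference. Old 4 stood apart for markers of neutrophils, with a summed level of 87.2 CPM beside 2.68 to 6.00 CPM in the other old and 0.993 to 2.04 CPM in the young libraries. Unless another test is named, adjusted p values come from edgeR's quasi-likelihood test over all 18492 genes with Benjamini-Hochberg adjustment, and a gene was called where this p was under 0.05 and its log2 fold change exceeded 0.58 in size. By this rule 2 of the 6 tested Fc receptor genes were called, Fcgr2b and Fcgr1, both higher in old brain, beside 2.28% of all tested genes called higher and 0.4% called lower. Without young 4 there were 4 called, with Fcgr3 and Fcer1g added, beside 2.9% of the genes tested then.

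**Figure D1:**
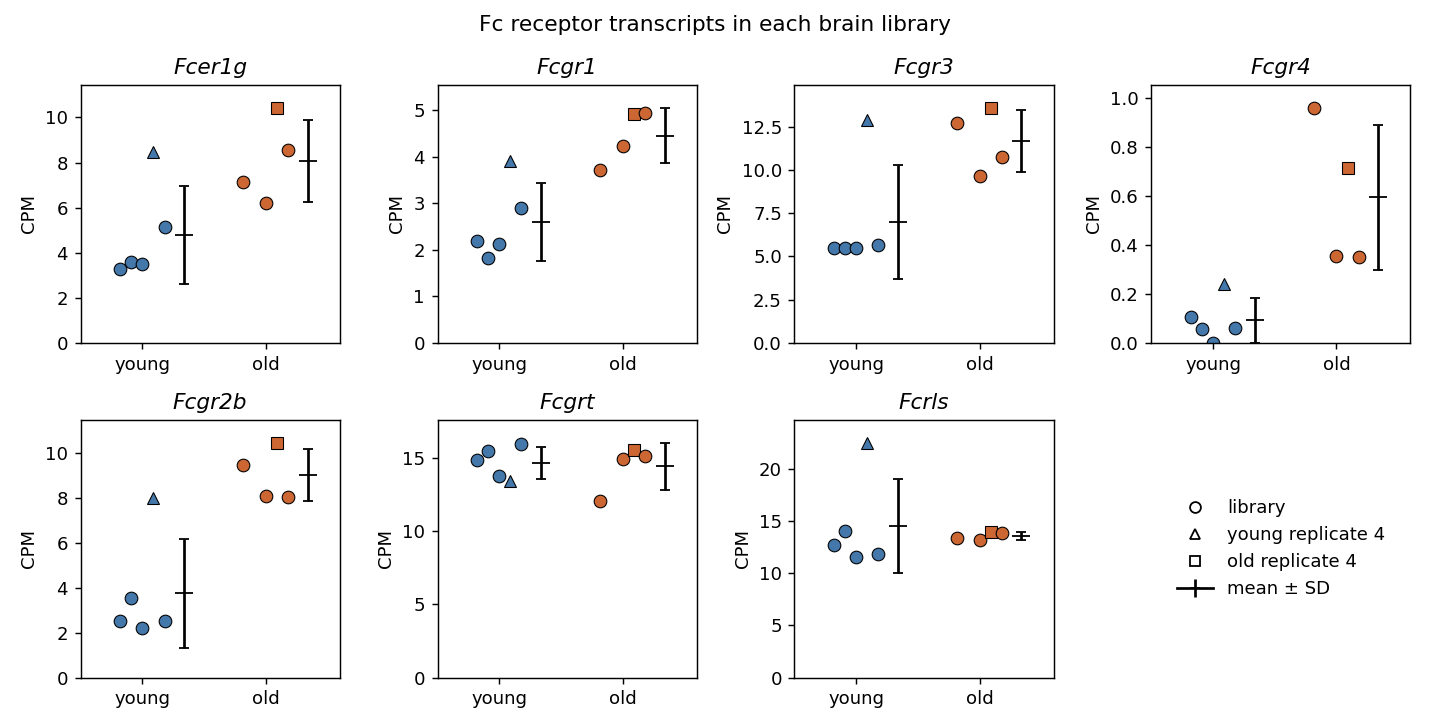
Level of each Fc receptor gene in CPM (vertical axis, from 0) in every young and old library, with the mean ± SD of each group (n = 5 young and n = 4 old) at the right of its points. Young 4 (triangle) lies above the other young libraries for Fcer1g, Fcgr1, Fcgr3, Fcgr4, Fcgr2b and Fcrls, and only Fcgr2b and Fcgr4 have every old library above every young one. This order held for 6.5% of all tested genes, and Fcgr4 failed the count filter and was not among them.

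Fcgr2b, the inhibitory receptor, had the largest difference among the 6 tested genes. Its level was 2.51, 3.54, 2.20, 8.02 and 2.53 CPM in young 1 to 5 and 9.46, 8.11, 10.5 and 8.04 CPM in old 1, 3, 4 and 5. Every old library was above every young one, which held for 6.5% of all tested genes (6.08% had every old library under every young one), although young 4 lay just under the lowest old library and the other 4 young libraries were far lower. The log2 fold change was 1.23 (SE 0.291, 95% interval 0.60 to 1.85), 2.34-fold, with an adjusted p of 0.0156 in edgeR. Without young 4 it was 1.73 (95% interval 1.41 to 2.06, edgeR adjusted p = 1.1e-05), and without old 4 it was 1.15 (adjusted p = 0.0378). The call depended on how edgeR pooled the variances: with robust shrinkage over all 9 libraries the fold change was the same and the adjusted p was 0.0792, whereas with robust shrinkage and young 4 left out it was 1.07e-06.

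Fcgr1 encodes the high-affinity receptor for monomeric IgG. Its level was 2.20, 1.83, 2.13, 3.91 and 2.90 CPM in young 1 to 5 and 3.72, 4.23, 4.92 and 4.93 CPM in old 1, 3, 4 and 5. The groups overlapped only through young 4, which was above old 1. The log2 fold change was 0.77 (SE 0.201, 95% interval 0.34 to 1.20), 1.70-fold, with an adjusted p of 0.0253. It was 0.98 without young 4 (edgeR adjusted p = 0.00268) and 0.71 without old 4 (adjusted p = 0.0609). The call was lost when any 1 of young 1, young 2, young 3, old 4 or old 5 was left out, with adjusted p values of 0.0504 to 0.0691.

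Fcgr3 encodes the low-affinity activating receptor for IgG complexes and was the most abundant of the 3 activating Fcγ receptors. Its level was 5.49, 5.48, 5.50, 12.9 and 5.68 CPM in young 1 to 5 and 12.8, 9.66, 13.6 and 10.7 CPM in old 1, 3, 4 and 5. Young 1, 2, 3 and 5 lay within 0.21 CPM of each other and under every old library, and young 4 was above 3 of the 4 old libraries. The log2 fold change was 0.72 (SE 0.231, 95% interval 0.23 to 1.22), 1.65-fold, and did not pass the adjusted threshold in edgeR (adjusted p = 0.0604). Without young 4 it was 1.08 (95% interval 0.84 to 1.33) with an adjusted p of 6.08e-05, and without old 4 it was 0.64 (adjusted p = 0.133).

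Fcer1g encodes the γ chain that the activating receptors need for signaling and for their place at the cell surface. Its level was 3.29, 3.60, 3.51, 8.45 and 5.13 CPM in young 1 to 5 and 7.12, 6.21, 10.4 and 8.57 CPM in old 1, 3, 4 and 5. Young 4 was above 2 old libraries, and the other young libraries were under all of them. The log2 fold change was 0.74 (SE 0.247, 95% interval 0.21 to 1.27), with an adjusted p of 0.0709 in edgeR. Without young 4 it was 1.07 (adjusted p = 0.00199), and without old 4 it was 0.59 (adjusted p = 0.181). Once young 4 was left out, every old library was above every remaining young library for Fcgr2b, Fcgr1, Fcgr3 and Fcer1g, as for 8.73% of the genes tested then. For Fcgr1, Fcgr3 and Fcer1g this follows from leaving out the only young library that overlapped the old ones.

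Fcgr4, the receptor for IgG2 and IgE complexes known from monocytes, macrophages and neutrophils, was barely detected. It had 2, 1, 0, 5 and 1 counts in young 1 to 5 and 18, 5, 13 and 6 counts in old 1, 3, 4 and 5. Given library size, the levels were 0 to 0.242 CPM in the young and 0.352 to 0.956 CPM in the old libraries, and the groups did not overlap. The gene failed the count filter, so the 6.5% of tested genes with this order are no measure for it. When all genes were kept, edgeR gave a log2 fold change of 2.5 with an adjusted p of 0.00157, in a test in which 1.98% of the genes were called. Its counts reached the filter in 2 old libraries and 0 young ones, so that this call is no support for a difference. DESeq2 gave a log2 fold change of 2.60 (SE 0.726) and no adjusted p for Fcgr4. With 9 counts in all young libraries together the size of this difference is poorly determined.

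Fcgrt and Fcrls did not share these differences. Fcgrt was at 14.8, 15.4, 13.7, 13.4 and 15.9 CPM in young 1 to 5 and at 12.1, 14.9, 15.5 and 15.1 CPM in old 1, 3, 4 and 5. The groups overlapped throughout, with old 1 the lowest of the 9 libraries. The log2 fold change was -0.03 (SE 0.0857, 95% interval -0.21 to 0.16, edgeR adjusted p = 0.877), and without young 4 it was -0.06.

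Fcrls was at 12.8, 14.1, 11.6, 22.5 and 11.8 CPM in young 1 to 5 and at 13.3, 13.2, 14.0 and 13.9 CPM in old 1, 3, 4 and 5. The old libraries differed from each other by less than 1 CPM, and young 4 was above all of them. Its log2 fold change was -0.11 (SE 0.164, 95% interval -0.46 to 0.24, edgeR adjusted p = 0.721) and changed sign to 0.11 (95% interval -0.06 to 0.28, adjusted p = 0.418) without young 4, so no direction can be given.

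**Figure D2:**
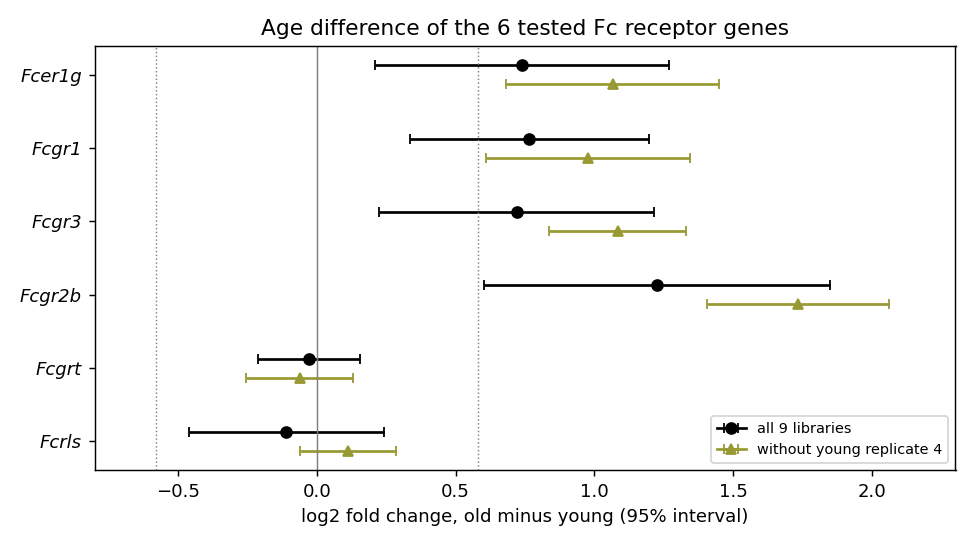
Log2 fold change of old minus young (horizontal axis) with its 95% interval for the 6 tested genes, over all 9 libraries (circles) and without young 4 (triangles), with dotted lines at 0.58 in size on both sides of 0. Leaving out young 4 moved Fcgr2b from 1.23 to 1.73 and Fcgr3 from 0.72 to 1.08, whereas the intervals of Fcgrt and Fcrls include 0 both ways.

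Levels of different genes were compared per length, in the TPM values that the authors deposited (counts divided by gene length and scaled to the same sum in each library). In young brain the mean levels were 18.2 TPM for Fcgrt, 15.9 for Fcrls, 13.7 for Fcer1g, 10.2 for Fcgr3, 2.55 for Fcgr1, 1.61 for Fcgr2b and 0.174 for Fcgr4. From Fcer1g downward each gene was above the next in all 5 young libraries, whereas Fcrls was above Fcer1g in only 3 of 5 and Fcgrt above Fcrls in 4 of 5. In old brain Fcer1g came first with 21.5 TPM and was above Fcgrt in all 4 libraries. Fcgrt followed with 15.8, Fcgr3 with 15.7 and Fcrls with 13.5, with Fcgrt above Fcgr3 in 2 of 4 libraries, Fcgr3 above Fcrls in 3 of 4 and Fcgrt above Fcrls in all 4. Fcgr1 with 3.98, Fcgr2b with 3.61 and Fcgr4 with 1.12 TPM were the least abundant, and Fcgr1 was above Fcgr2b in 3 of 4 old libraries. The order of Fcgr1 and Fcgr2b depends on the gene lengths used. In CPM the mean was 3.76 for Fcgr2b and 2.59 for Fcgr1 in young brain, and 9.01 and 4.45 in old brain. On this scale the median gene had an old minus young difference of -0.142 in log2(TPM + 1), and the TPM differences are read relative to that shift.

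Activating and inhibitory transcripts were also set against each other within each library. Fcgr3 was 7.30, 5.16, 8.34, 5.36 and 7.48 times Fcgr2b in TPM in young 1 to 5 and 4.50, 3.97, 4.33 and 4.46 times in old 1, 3, 4 and 5. The groups did not overlap, but young 2 and young 4 were close to the old values. The sum of Fcgr1, Fcgr3 and Fcgr4 was 8.62 ± 1.99 times Fcgr2b in the young (SD, n = 5) and 5.73 ± 0.292 times in the old libraries (SD, n = 4). This sum was still larger than Fcgr2b in every library, by at least 5.34 times. The ratio was computed after the levels of both genes were known and is given as a description with no test. Fcer1g, the γ chain, stood at 1.07 ± 0.149 times the activating sum in the young (SD, n = 5) and 1.03 ± 0.157 times in the old libraries (SD, n = 4).

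**Figure D3:**
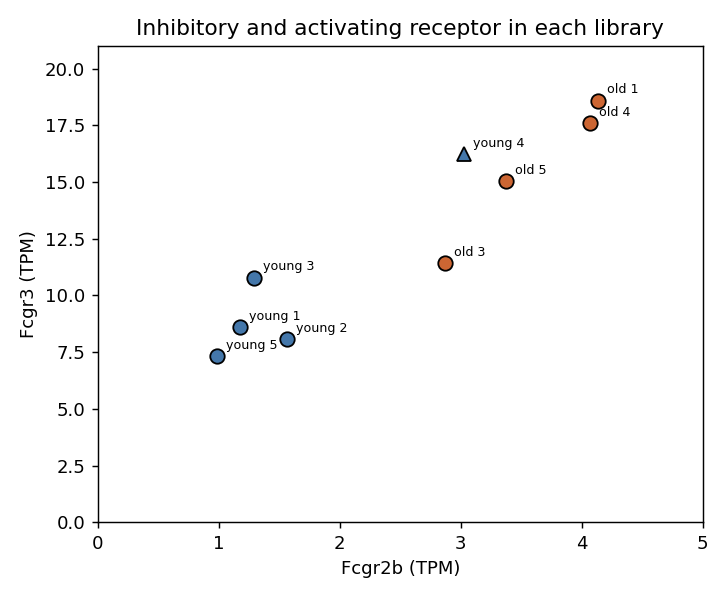
Level of Fcgr3 (vertical axis, TPM) against Fcgr2b (horizontal axis, TPM) in each library, young in blue and old in orange, with young 4 as a triangle. The 4 old libraries and young 4 lie apart from the other young libraries for Fcgr2b, and the ratio of Fcgr3 to Fcgr2b runs from 5.16 to 8.34 in the young and from 3.97 to 4.50 in the old libraries.

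The activating genes and Fcgr2b varied together across the 9 libraries, and Fcgrt did not follow them. In log2 CPM the Pearson correlation over the 9 libraries was 0.96 between Fcgr2b and Fcgr3, 0.95 between Fcer1g and Fcgr1 and 0.94 between Fcer1g and Fcgr3. It was 0.56 between Fcgr3 and Fcrls and -0.39 between Fcgr3 and Fcgrt. These points share their age difference and the high value of young 4, and without young 4 the correlation of Fcgr2b and Fcgr3 was 0.97. Among 14467 genes the levels most like Fcgr2b over the 9 libraries were those of Apoe (r = 0.99), C1qb (0.98) and Pld4 (0.98). Those most like Fcgr3 were Itgb5 (0.98), Tyrobp (0.98), which encodes another ITAM adaptor of microglia, and Tlr2 (0.98). For Fcgr1 they were Npc2 (0.97), Pros1 (0.97) and Itgb2 (0.96), for Fcer1g Hspa12b (0.98), Tent5c (0.98) and 4930435N07Rik (0.97), for Fcgrt Abhd5 (0.93), Tatdn1 (0.90) and Ggt5 (0.89), and for Fcrls Edem2 (0.97), Rasgrf1 (0.93) and Rnpep (0.88).

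Markers of brain macrophages were examined beside these genes. Of 11 homeostatic microglia markers, 3 were higher in old brain at an adjusted p under 0.05, beside 6.2% of all genes, and the median log2 fold change was 0.32 against a median of 0.00 over all tested genes. Among them were Sall1 (0.68, adjusted p = 0.0416) and Tmem119 (0.53, adjusted p = 0.000933), both by edgeR. The call of Sall1 was lost when any 1 of young 1, 3, 4 or 5 or old 3 or 5 was left out, with adjusted p values of 0.0753 to 0.126 and a log2 fold change of 0.41 without old 5, whereas Tmem119 kept an adjusted p of 0.000841 without young 4. Without young 4 the count of markers was 5 of 11, beside 6.33% of all genes, and without old 4 it was 3, beside 5.18%. The mean log2 CPM of the 11 markers was 3.85, 3.94, 3.84, 4.11 and 3.81 in young 1 to 5 and 4.16, 4.23, 4.15 and 4.38 in old 1, 3, 4 and 5, so that the ages just separated and young 4 was the highest young library. In bulk tissue, more cells of a type and more RNA of a gene per cell cannot be told apart. Taken relative to this marker mean, the old minus young difference was 1.08 for Fcgr2b, 0.49 for Fcgr3, 0.49 for Fcer1g and 0.48 for Fcgr1 on the log2 scale. For Fcrls it was -0.37 and for Fcgrt -0.35. On this relative scale the young and old libraries overlapped through young 4 alone for Fcgr2b and Fcgr3, and through young 4 and young 5 for Fcer1g and Fcgr1. For Fcrls every old library was under every young one, at -0.57 to -0.34 against -0.30 to 0.39, as in 31.9% of all tested genes on this scale, since the marker mean itself was higher in old brain. With the marker mean as a covariate no Fc receptor gene was called, beside 0.357% of all genes. Fcgr2b then had a log2 fold change of 0.35 (SE 0.395, edgeR adjusted p = 0.788), Fcgr1 of 0.25 (SE 0.321, adjusted p = 0.817), Fcgr3 of 0.09 and Fcer1g of 0.10. Fcrls had -0.76 (SE 0.187, adjusted p = 0.0932). These values come from a fit in which the covariate itself separated the ages.

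**Figure D4:**
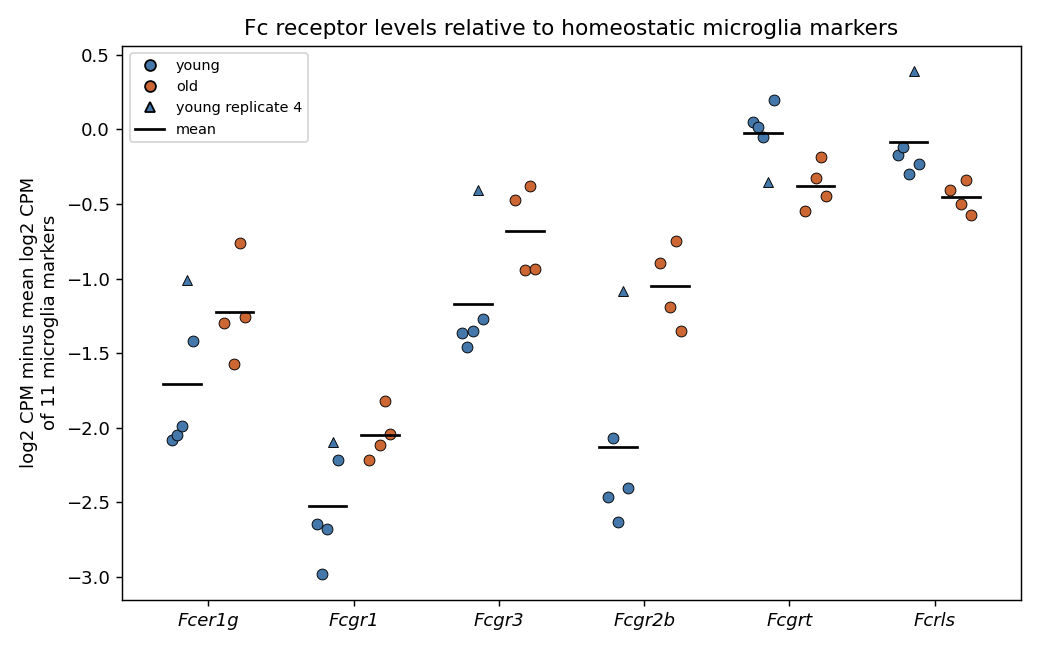
Log2 CPM of the 6 tested genes minus the mean log2 CPM of 11 homeostatic microglia markers (vertical axis) in each library, young in blue and old in orange, with horizontal lines at the group means and young 4 as a triangle. The old mean is above the young mean by 1.08 for Fcgr2b and under it by 0.37 for Fcrls.

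Other cells that can carry Fc receptors were examined by their markers. Of 8 tested markers of border macrophages, 3 were higher in old brain at an adjusted p under 0.05, beside 6.2% of all genes, Ms4a7 (log2 fold change 1.90, edgeR adjusted p = 0.0228), Cd163 (0.69, adjusted p = 0.0263) and Stab1 (0.31, adjusted p = 0.0175). Ms4a7 missed the threshold without young 1, old 4 or old 5 (adjusted p of 0.0509 to 0.08), Cd163 without young 1, 2 or 5 or old 1 or 3 (0.0522 to 0.0872) and Stab1 without old 5 (0.0571). Without young 4, Ms4a7 was not tested and 2 of 6 markers passed, beside 6.33% of all genes. The counts of Ms4a7 reached the filter in 4 old libraries and in 1 young one, so that its call is no support for a difference, and without it, Pf4 and Clec10a, which each reached it in 1 young library, 2 of 5 passed. All 9 markers summed to 26.4 to 30.2 CPM in the young, with 30.2 CPM in young 4, and to 34.8 to 41.4 CPM in the old libraries, and Stab1 was the most abundant. Of 8 neutrophil markers 3 passed the count filter (S100a9, Ngp and S100a8), and all 3 were called, with log2 fold changes of 3.92 to 4.56, beside 2.28% of all genes. S100a9 and S100a8 reached the filter in 4 old libraries each, but in only 1 and 2 young ones, so that their count is no support for a difference. Without old 4 the log2 fold change was 2.09 for S100a9 (adjusted p = 0.0117), 1.28 for S100a8 (adjusted p = 0.0864) and 1.25 for Ngp (adjusted p = 0.137), so that 1 of 3 passed, beside 5.18% of all genes. S100a8 and Ngp also missed the threshold without young 1, 2 or 5. Ly6g had 5 counts in total. Of 6 monocyte markers only Ace, which other brain cells express too, was tested (0.31, adjusted p = 0.0795). Chil3 and Ccr2 had 156 and 49 counts over the 9 libraries, and 123 of those of Chil3 were in 1 old library. No marker of mast cells or of NK and T cells passed the count filter. The most abundant were Tpsb2 and Cpa3 of mast cells with 11 and 10 counts in total and Cd8a and Cd3e of T cells with 47 and 32. The 8 NK and T cell markers summed to 0.137 to 0.58 CPM in the young and 1.17 to 2.0 CPM in the old libraries, so that every old library was above every young one. Among single tested genes 6.5% had this order, a share that does not apply to a sum of genes that failed the filter. Cd8a had 0 to 3 counts in a young and 5 to 16 in an old library. Mrgprb2, a mast cell marker, was at 0 in every library. All 5 red blood cell markers were called, beside 2.28% of all genes, with a median log2 fold change of 1.26 and the highest sum, 409 CPM, in old 4, and without old 4 there were 4 of 5 that passed an adjusted p under 0.05, beside 5.18% of all genes, and the median was 0.82. Of 8 endothelial markers 4 were higher at an adjusted p under 0.05, beside 6.2% of all genes. Of the 8, 5 were positive, beside 9243 of all 18492 genes, with a median log2 fold change of 0.18. The values ran from 0.94 for Ly6c1 (adjusted p = 5.03e-05) and 0.38 for Pecam1 (adjusted p = 0.00106) to -0.14 for Cldn5 (adjusted p = 0.374) and -0.30 for Kdr (adjusted p = 0.0839), beside Fcgrt at -0.03. Without old 4 the count was 2 of 8, beside 5.18% of all genes. The part of these cells in the Fc receptor differences was not tested.

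The main cell types of brain were present in every library, with markers of neurons summing to 4690 to 5220 CPM, of astrocytes to 3120 to 3460 CPM and of oligodendrocytes to 5710 to 7780 CPM. The median log2 fold changes of these lists were -0.02, 0.01 and -0.06. At an adjusted p under 0.05 in edgeR, Tubb3 of neurons was lower (-0.22), Mobp (0.33) and Mbp (0.26) of oligodendrocytes were higher and Mog (-0.22) was lower. Mog missed the threshold without young 1, 3 or 5 or old 1 or 5 (adjusted p in edgeR of 0.0677 to 0.101). Kcne2 of the choroid plexus was lower too (-0.74). None of 3 tested B and plasma cell markers passed, beside 11% of all genes in either direction, with Pax5 at -0.39.

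RNA of immunoglobulin constant genes was examined beside the receptors, and antibody protein, which the receptors bind, was not measured here. Of 13 such genes 4 passed the count filter and 2 were called, both higher in old brain, beside 2.28% of all genes. Igkc, the κ light chain, had a mean of 0.233 ± 0.126 CPM in the young (SD, n = 5) and 4.83 ± 5.01 CPM in the old libraries (SD, n = 4), with a log2 fold change of 4.40 and 3.38 without old 4. Its counts reached the filter in 4 old libraries and 0 young ones, so these values are given as a description and the call as no support. Ighg2c, an IgG heavy chain, had 1.13 ± 0.159 CPM in the young (SD, n = 5) and 2.88 ± 0.788 CPM in the old libraries (SD, n = 4), with a log2 fold change of 1.34 (edgeR adjusted p = 0.00152). Ighm was the most abundant at 16.9 and 16.4 CPM in young and old brain, with a log2 fold change of -0.05. Reads from such similar genes can be lost or split in counting, so these values are uncertain. Levels varied widely among old brains, with a summed level of 18.1 to 52.9 CPM and the highest in old 4.

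The receptor of IgE on mast cells was all but absent: Fcer1a and Ms4a2, which join the γ chain there, had 2 and 4 counts over the 9 libraries. Of 12 other Fc and Fc-like receptors 3 were tested and none passed an adjusted p under 0.05, beside 11% of all genes in either direction. Trim21, the cytosolic antibody receptor, was at 2.54 ± 0.365 CPM in the young (SD, n = 5) and 3.61 ± 0.645 CPM in the old libraries (SD, n = 4), with a log2 fold change of 0.51 (edgeR adjusted p = 0.0638). Without old 1 its log2 fold change was 0.63 (edgeR adjusted p = 0.0271). Fcer2a (0.08) and Fcrlb (-0.44) were lower in abundance, at 0.891 to 1.57 CPM on average. B2m, the light chain that Fcgrt needs, rose from 56.2 ± 10.5 CPM in the young (SD, n = 5) to 108 ± 13.7 CPM in the old libraries (SD, n = 4). Its log2 fold change of 0.93 (adjusted p = 0.000212) stood beside -0.03 for Fcgrt, and B2m also serves MHC class I.

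Downstream of the activating receptors, 17 of 17 ITAM signaling genes were tested. All had a positive fitted log2 fold change, beside 9243 of all 18492 genes tested, with the lowest at 0.003 for Bcl10. The median of the 17 was 0.44, also without Fgr, which reached the count filter in 4 old libraries and 1 young one. Of them 2 passed an adjusted p under 0.05, beside 6.2% of all genes in this direction: Lcp2, an adaptor of SYK (0.78, edgeR adjusted p = 0.0496), and Plcg2, a phospholipase (0.58, adjusted p = 0.0166). Lcp2 missed the threshold without young 2, 3 or 5 or old 3, 4 or 5 (adjusted p of 0.0583 to 0.161), and Plcg2 kept it with each library left out. Syk itself (0.44) and Lyn, the kinase that phosphorylates the ITAM (0.44), both had an adjusted p of 0.0647. Without young 4 the count was 10 of 17, beside 6.33% of all genes in the same fit, and without old 4 it was 1, beside 5.18%.

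Of 13 genes of phagocytosis and the NADPH oxidase 6 passed, beside 6.2% of all genes, with a median log2 fold change of 0.65. These included the oxidase subunits Ncf4 (1.31, edgeR adjusted p = 0.0143), Cyba (0.87, adjusted p = 0.0181) and Ncf1 (0.74, adjusted p = 0.0146) and the actin regulators Was (0.72, adjusted p = 0.0381), Arpc1b (0.60, adjusted p = 0.00856) and Wipf1 (0.29, adjusted p = 0.0246). With 1 library left out, Was passed only without young 4 and had an adjusted p of 0.0562 to 0.086 in the other 8 fits. Wipf1 missed the threshold without young 1, old 4 or old 5 (0.0604 to 0.0766) and Cyba without old 4 (0.0526). Cybb, the catalytic subunit, was at 2.02 ± 2.42 CPM in the young (SD, n = 5), with 6.33 CPM in young 4, and at 5.04 ± 1.03 CPM in the old libraries (SD, n = 4), and had an adjusted p of 0.122. The count was 11 of 13 without young 4, beside 6.33% of all genes, and 3 without old 4, beside 5.18%.

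Downstream of the inhibitory receptor, 2 of 10 genes passed, beside 6.2% of all genes. Inpp5d, which encodes SHIP1, rose from 10.5 ± 3.14 CPM in the young (SD, n = 5) to 16.4 ± 1.53 CPM in the old libraries (SD, n = 4), with a log2 fold change of 0.63 (edgeR adjusted p = 0.0222). Ptpn11, the broadly expressed phosphatase SHP2, rose by a log2 fold change of 0.23 (adjusted p = 0.00087). Inpp5d missed the threshold without young 5, old 4 or old 5 (adjusted p of 0.0519 to 0.0592). Ptpn6, the SHP1 phosphatase of blood cells, had 0.79 (adjusted p = 0.0507), and Dok3, an adaptor that dampens signaling, had -0.42 (adjusted p = 0.0595). Without young 4 the count was 4 of 10, beside 6.33% of all genes, and without old 4 it was 1, beside 5.18%.

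Of 11 tested receptors of microglia that carry or use an ITAM or ITIM outside the Fc family, 3 passed, beside 6.2% of all genes. Their median log2 fold change was 0.63 with no negative value, where 9243 of all 18492 tested genes were positive. Clec7a and Cd22 reached the count filter in 4 old libraries and 1 young one each, and the median of the other 9 genes was 0.50. Those that passed were Pirb, an inhibitory receptor (1.06, edgeR adjusted p = 0.0468), Cd33, a receptor for sialic acid (0.50, adjusted p = 0.015), and Trem2 (0.89, adjusted p = 0.0306), which signals through Tyrobp. Pirb passed only without young 4 or old 3 and had an adjusted p of 0.0637 to 0.165 in the other 7 fits with 1 library left out. Trem2 passed only without young 4 or old 1 (0.0577 to 0.0762 in the other 7), and Cd33 missed the threshold without old 5 (0.0507). The log2 fold change of Tyrobp was 0.83 (adjusted p = 0.0659), beside 0.74 for the other ITAM adaptor, Fcer1g. It was at 7.83 ± 4.70 CPM in the young (SD, n = 5), with 16.2 CPM in young 4, and at 14.1 ± 1.29 CPM in the old libraries (SD, n = 4). Without young 4 the count was 6 of 11, beside 6.33% of all genes, and without old 4 it was 1, beside 5.18%.

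**Figure D5:**
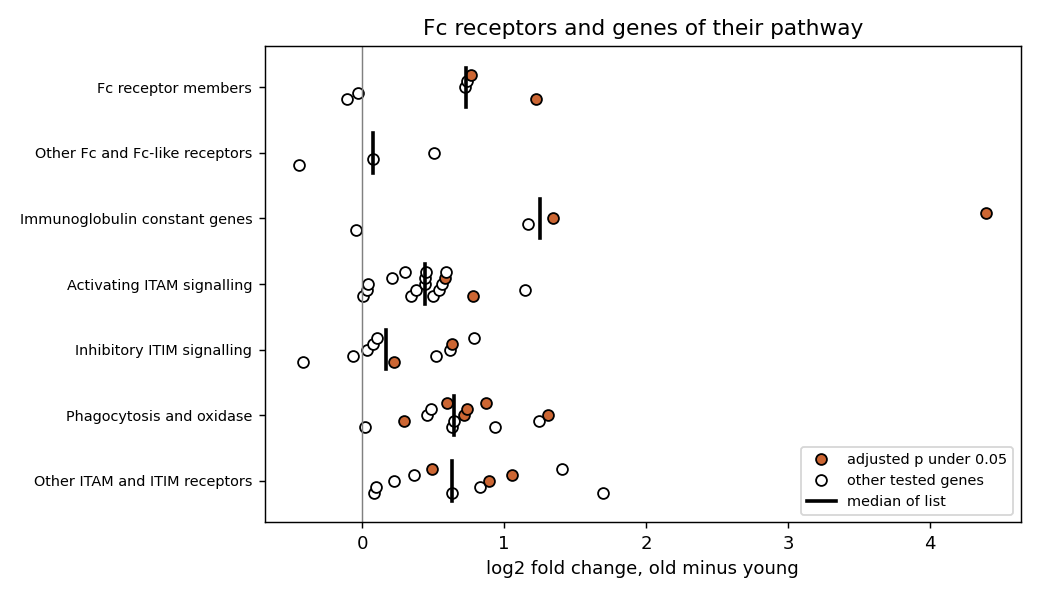
Log2 fold change of old minus young (horizontal axis) of each tested gene of the Fc receptors and of 6 lists of their pathway, with filled circles for an adjusted p under 0.05 in edgeR and a bar at the median of each list. The medians are 0.44 for activating ITAM signaling, 0.17 for inhibitory ITIM signaling and 0.65 for phagocytosis and oxidase, and the vertical spread of the points has no meaning.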

How the data were processed

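RNA-seq of whole brain from 5 young and 4 old male C57BL/6J mice was used. Per the study's methods, Azenta Life Sciences trimmed reads with Trimmomatic and aligned them with STAR to the Ensembl GRCm38 genome. The uniquely mapped reads that fell on exons were counted with featureCounts. The strandedness of the libraries is not given in the sources used here. The submitters' processing notes name mm10 and DESeq2. The authors deposited whole-number counts per gene without normalization, TPM values and normalized counts, of which the last were not used. Each table held 1 further column that matched no listed sample and was not used.

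Genes were kept with filterByExpr (minimum count 10, minimum total count 15), normalized with TMM and tested with edgeR's quasi-likelihood test. CPM used TMM library sizes, and log2 CPM a prior count of 2. R 4.3.3 was used with edgeR 4.0.16, DESeq2 1.42.0 and limma 3.58.1. Symbols and positions came from GENCODE M21, and 345 gene IDs had no symbol. Libraries of one age differed by more than sampling noise (chi-square per degree of freedom at least 4.05).

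The Fc receptor genes and the lists were chosen with earlier results of these data known. Within each list, genes passing an adjusted p of 0.05 were named, up to the 4 largest, or else the 2 most abundant. For each receptor the 3 genes with the highest correlation were named. Not every gene under this rule is reported here. Other genes were named after their values were seen. The alternatives were other size factors, limma on log2(TPM + 1) and log2(TPM + 0.1), the Wald test of DESeq2, other count filters, each mouse left out, a replicate block and the microglia markers as a covariate. Robust variance shrinkage, with and without young 4, was added after the data were seen.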

Additional observations from a re-analysis of the deposited data

Results flagged for a closer look

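Among 44 groups of libraries examined, 6 held a library far from the rest by Dixon's ratio of the gap to the range, and chance alone gives about 1 in 20 groups. For Fcgr3 the log2 CPM of young 4 was 3.70, with a ratio of 0.957. Relative to the microglia markers, young 4 was also far from the other young libraries for Fcgr3 (-0.40, ratio 0.824) and for Fcrls (0.39, ratio 0.733). The summed level of the activating ITAM signaling genes was 180 CPM in young 4 (ratio 0.713), and that of the immunoglobulin constant genes was 22.9 CPM there (ratio 0.884). In old 4 the neutrophil markers summed to 87.2 CPM, with a ratio of 0.961.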

How the results depend on the processing

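The number of Fc receptor genes called was 5 with no filter on low counts (beside 1.98% of all genes), 4 with the replicate block (2.54%), 0 with the microglia covariate (0.357%), 1 with robust shrinkage (2.5%) and 4 with robust shrinkage and young 4 left out (3.26%), against 2 (2.68%). This number was 3 with limma on log2(TPM + 1) (2.05%) and 3 on log2(TPM + 0.1) (3.04%). It ran from 1 to 4 with each mouse left out, and was 4 without young 4 (3.33%). Over all genes the calls were 495, 66 with the microglia covariate, 2039 with no fold change threshold and 392 to 604 with each mouse left out. The cause of these changes was not tested. Fcer1g and Fcgr3 passed the thresholds with limma on log2(TPM + 1) (0.62 and 0.60), with limma on log2(TPM + 0.1) (0.65 and 0.65), with no filter (0.73 and 0.71), with the replicate block (0.70 and 0.71) and without young 4 under robust shrinkage (1.07 and 1.08). With each mouse left out they ran from 0.59 to 1.07 and from 0.64 to 1.08. Fcgr1 no longer passed with limma on log2(TPM + 1) (0.50) or log2(TPM + 0.1) (0.64) or with the microglia covariate (0.25). It ran from 0.66 to 0.98 with each mouse left out, and lost its call without young 1, 2 or 3 and without old 4 or 5, with adjusted p values in edgeR of 0.0504 to 0.0691. Fcgr2b no longer passed with the microglia covariate (0.35) or robust shrinkage (1.23, adjusted p = 0.0792) and kept its call with each mouse left out. Fcgr4 had an adjusted p only with no filter (2.5), where it was among the 5 called although its counts reached the filter in old libraries alone. The Wald test of DESeq2 gave 2.60 without an adjusted p.

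Fcgrt changed sign with the microglia covariate (0.015) and ran from -0.069 to 0.055 with each mouse left out. Fcrls was 0.11 without young 4 with either shrinkage, and ran from -0.18 to 0.11 with each mouse left out, and was -0.76 with the microglia covariate (adjusted p = 0.0932). Fcer2a changed sign with limma on log2(TPM + 1) (-0.056) and log2(TPM + 0.1) (-0.081) and ran from -0.040 to 0.154 with each mouse left out, and with it the median of the other Fc receptors, whose middle gene it is. With the microglia covariate Trem2 (-0.0098) and the median of the other ITAM and ITIM receptors (-0.02) changed sign. Of 550 further gene values 120 crossed the threshold in some setting.

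Replicate numbers did not pair the mice: the correlation of same-numbered deviations was 0.17, -0.12, 0.09 and -0.02 for numbers 1, 3, 4 and 5. The block nonetheless raised the count of Fc receptor calls from 2 to 4. The lowest levels in CPM, those of Fcgr4 and Fcgr1, are limited by depth.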
